A study of Mus musculus with 72 samples.

Results

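The genes of cholesterol synthesis and other targets of SREBP2 were followed in livers of mice kept on Western diets that differed in isoleucine. The module holds 27 genes, found by matching their symbols to identifiers in a table of 50307 genes, and all 27 were among the 14954 genes with enough counts to be tested. It was laid out by role: 3 genes that supply HMG-CoA, 6 of the mevalonate steps, 3 from squalene to lanosterol, 8 from lanosterol to cholesterol, 4 that make up the SREBP2 control machinery and 3 other targets.

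Liver RNA was taken from males and females of the inbred strains C57BL/6J (B6, written C56BL/6J in part of the labels) and DBA/2J (DBA) after 12 weeks of feeding and a fast of 16 h. The Western diets held isoleucine, an essential branched-chain amino acid, at a control, low or high level. No allele or drug is named for any group, and every group was fed a Western diet, so the effect of that diet itself is not measured. The 72 libraries form 12 groups of 6, one per strain, sex and diet; 1 strain and sex is called a class. The age given is 18 weeks, and the start of the diets is placed at 6 weeks of age in one text and at 18 weeks in another; whether libraries came from separate animals is not stated, so p-values measure only how far libraries spread, which may be technical in part.

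Cholesterol is built from acetyl units through HMG-CoA, mevalonate, farnesyl diphosphate, squalene and lanosterol. SREBP2, the product of Srebf2, is a membrane-bound transcription factor that SCAP carries from the endoplasmic reticulum to the Golgi when sterols are scarce; there it is cut, and the freed part enters the nucleus and raises transcription of nearly the whole pathway. When sterols are plentiful, the INSIG proteins hold SCAP back. Insig1 is itself a target of SREBP2, whereas Insig2 is not known as one and in liver is known to rise in fasting and to be lowered by insulin. The liver is a main site of cholesterol synthesis, and synthesis falls during a fast.

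Promoter sequences from RefSeq (GRCm38.p6) were matched for 23 of the 27 genes. The 250 bases before a start of transcription are shown for an enzyme at the head of the pathway, a mevalonate-step enzyme and both INSIG genes, because the results on diet and strain turn on these genes. Capitals mark the letters TCACNCCAC (the core of a sterol element as searched here), CCAAT and CACGTG (an E-box) on either strand, so that CCAAT also appears as ATTGG. The stretches are chr13:119690101-119690350 on the plus strand, chr13:8885356-8885605 on the plus strand, chr5:28071162-28071411 on the plus strand and, for 1 of the starts of Insig2, chr1:121332590-121332839 on the minus strand.
Hmgcs1: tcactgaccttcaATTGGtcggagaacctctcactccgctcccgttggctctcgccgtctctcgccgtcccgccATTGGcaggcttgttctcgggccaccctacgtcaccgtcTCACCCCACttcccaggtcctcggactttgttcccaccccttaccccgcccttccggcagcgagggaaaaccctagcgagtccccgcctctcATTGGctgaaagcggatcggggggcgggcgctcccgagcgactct
Idi1: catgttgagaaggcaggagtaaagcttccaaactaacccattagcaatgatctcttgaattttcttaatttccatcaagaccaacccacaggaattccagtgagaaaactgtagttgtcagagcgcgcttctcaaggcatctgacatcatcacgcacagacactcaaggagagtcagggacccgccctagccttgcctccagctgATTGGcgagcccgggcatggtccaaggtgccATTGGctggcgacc
Insig1: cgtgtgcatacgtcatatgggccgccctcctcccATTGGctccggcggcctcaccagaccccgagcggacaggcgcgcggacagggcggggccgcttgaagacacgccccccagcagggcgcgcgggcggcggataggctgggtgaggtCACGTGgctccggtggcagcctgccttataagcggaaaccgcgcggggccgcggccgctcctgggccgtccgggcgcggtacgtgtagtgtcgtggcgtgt
Insig2: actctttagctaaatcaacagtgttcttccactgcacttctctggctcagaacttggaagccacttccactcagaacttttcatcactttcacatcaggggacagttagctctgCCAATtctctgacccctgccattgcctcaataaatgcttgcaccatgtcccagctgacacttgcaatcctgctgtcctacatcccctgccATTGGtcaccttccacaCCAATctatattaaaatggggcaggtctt

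The stretch of Hmgcs1 holds the sterol element letters once and CCAAT 3 times, that of Idi1 holds CCAAT 2 times, that of Insig1 holds CCAAT and CACGTG once each, and that of Insig2 holds CCAAT 3 times. The stretches before the other starts of Insig2, not shown, hold none of the letters searched. Over whole promoters of 300 bases, CCAAT was found for 20 of the 23 genes (87%) and for 41.1% of all genes in the promoter table. A gene was counted if any of its promoters held the letters. By single promoter, CCAAT was in 20 of 30 promoters of the members and in 37.4% of all promoters. CACGTG was found for 6 of 23 (26.1%) against 8.09% of all genes, and TCACNCCAC for 1 of 23 (4.35%), Hmgcs1, against 1.44%. These are letter matches in a fixed window, given as a description.

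CPM stands for counts per 1000000 counts, with library sizes scaled by TMM. Library totals ran from 12958959 to 51125370 counts, with a median of 24128736. Summed CPM of the 9 hepatocyte markers found in the table lay between 76344 and 162707 in all libraries, and none of them was at 0 throughout a group. Of the female libraries, B6 control library 4 was the single library with the Y-linked gene Ddx3y above 0, at 0.568 CPM against 28.9 to 46.5 in B6 control males. That library was also the highest of its group for 18 of the 27 members, and the share of all genes highest there was not taken. Over all genes tested, its median correlation (log2 CPM) with libraries of its group was 0.9726, against 0.9858 to 0.9891 for the other B6 female controls. Calls that were lost without B6 female control library 4 are named beside the results.

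The level per kb of exon differed widely along the pathway, as the plot of levels per exon length shows. Over the 72 libraries the highest medians were 82.4 CPM per kb for Insig2, 66.9 for Ebp, 32.4 for Tmem97 and 31.2 for Sc5d, and the lowest were 0.227 for Sqle, 1.15 for Mvd and 1.35 for Lss. Within the late steps, Ebp, the sterol isomerase, and Sc5d, the lathosterol desaturase, stood above Cyp51 (2.48) and Msmo1 (2.43), which remove methyl groups from lanosterol and its products.

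**Figure D1:**
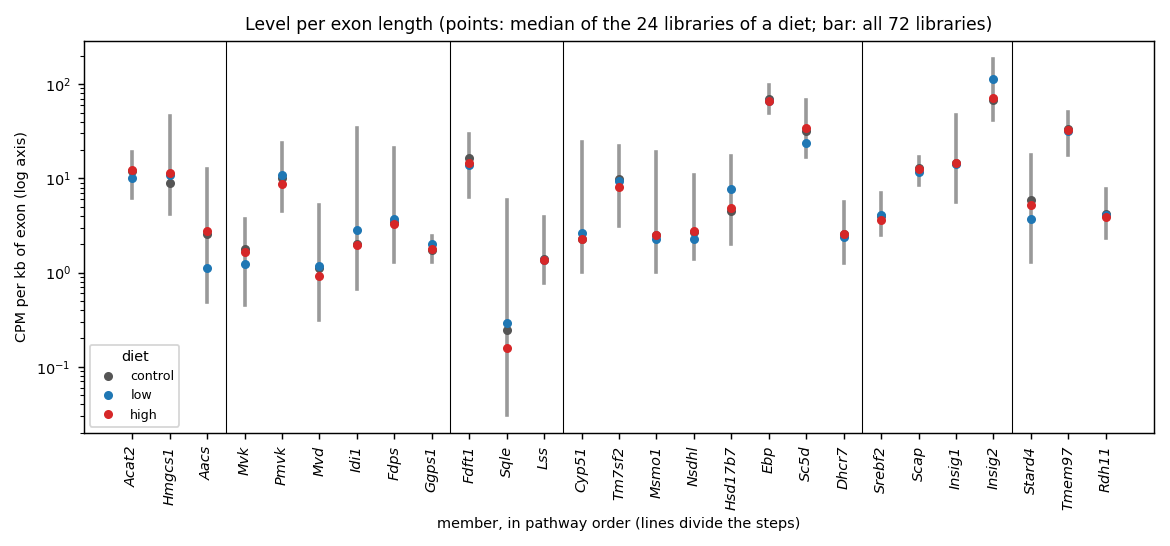
CPM per kb of exon on a log axis for the 27 members in pathway order; points are medians of the 24 libraries of each diet, and grey bars span all 72 libraries. Sqle sits lowest at a median of 0.227 CPM per kb and Insig2 highest at 82.4, and the low isoleucine point of Insig2 lies above those of the other diets.

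The members also differed in how far they varied between libraries of 1 group. The ratio of the highest to the lowest of 6 libraries had a median over the 12 groups of 13.7 for Sqle, 6.78 for Idi1, 3.48 for Msmo1, 3.31 for Mvd, 3.23 for Aacs and 3.19 for Cyp51. For Ebp it was 1.32, for Scap 1.33, for Ggps1 1.37, for Acat2 1.44 and for Srebf2 1.5. Several of the wide genes peaked in the same libraries: the library with most Sqle in its group was also the one with most Idi1 in 9 of 12 groups, with most Fdps in 9, with most Cyp51 in 9 and with most Msmo1 in 8, against 2 groups for Insig2 and 3 for Ebp. Aacs, also wide, did not follow, with 1 of 12 groups.

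The effect of low isoleucine against control was first averaged over the 4 classes, with 24 libraries per diet. Log2 fold changes are given ± standard error (SE) from edgeR's quasi-likelihood test, with Benjamini-Hochberg adjustment over all 14954 genes and a threshold of 0.05. Of the 27 members, 9 fell and 3 rose (44.4% called, against 37.8% of all genes), so the share of members called was near that of all genes. Their median log2 fold change was -0.23, against -0.00346 over all genes tested. The genes that fell were Aacs, Stard4, Msmo1, Nsdhl, Sc5d, Mvk, Insig1, Fdft1 and Acat2, and those that rose were Insig2, Hsd17b7 and Ggps1. Insig1 and Insig2, which do the same job of holding SCAP back, thus moved in opposite directions.

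**Figure D2:**
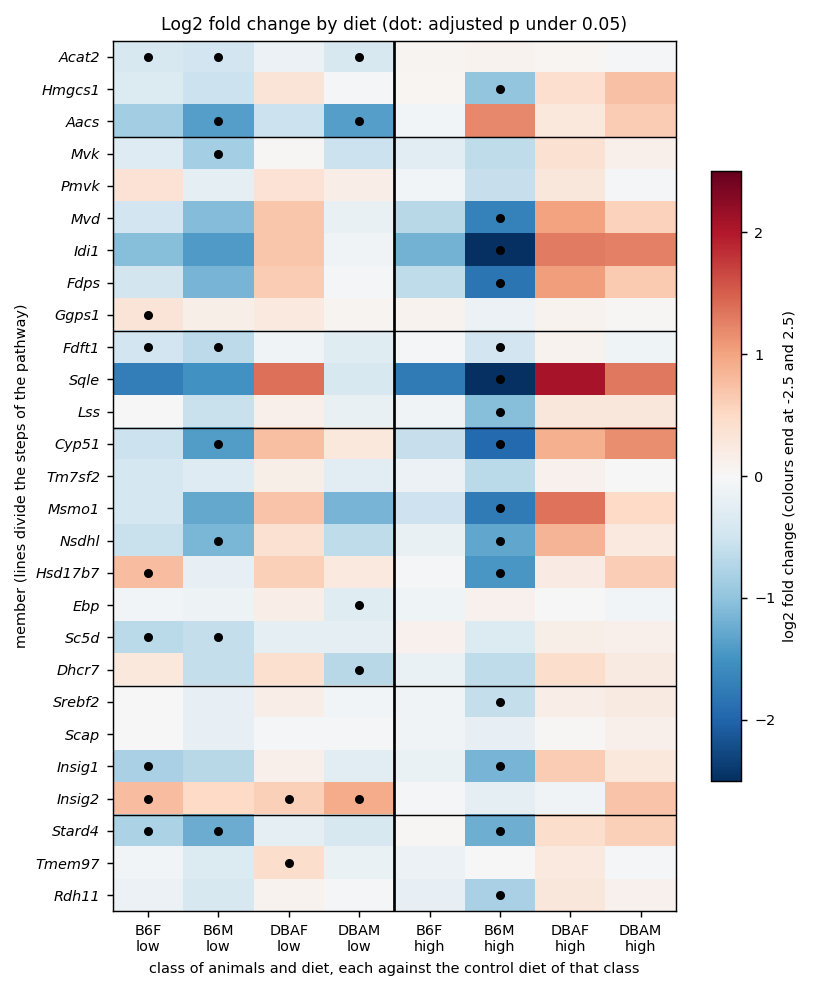
Log2 fold change of the 27 members (rows, in pathway order) for low and high isoleucine against control in each class (columns); dots mark an adjusted p under 0.05. The column of B6 males on high isoleucine holds 15 dots, all for lower levels, and the other 3 columns for high isoleucine hold none; colours end at -2.5 and 2.5, past which lie Sqle and Idi1 in B6 males on high isoleucine.

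Insig2 (143 to 649 CPM over all libraries) had the lowest adjusted p of the members. Insig2 in B6 females spanned 202 to 444 CPM (median 306) on control, 418 to 649 (median 500) on low and 223 to 395 (median 269) on high isoleucine. Insig2 in B6 males spanned 154 to 391 CPM (median 244) on control, 334 to 439 (median 376) on low and 202 to 261 (median 235) on high isoleucine. In both classes the low isoleucine libraries were the high ones, with some overlap with control. Insig2 in DBA females spanned 180 to 296 CPM (median 227) on control, 320 to 431 (median 343) on low and 143 to 267 (median 229) on high isoleucine. Insig2 in DBA males spanned 156 to 242 CPM (median 187) on control, 299 to 473 (median 341) on low and 205 to 454 (median 270) on high isoleucine. In DBA every low isoleucine library lay above every control library, in both sexes. The log2 fold change was 0.70 ± 0.09, adjusted p = 3.98e-09, and by class 0.78 and 0.49 in B6 females and males (the latter with adjusted p = 0.094) and 0.59 and 0.93 in DBA females and males. The call in DBA females was lost without its control library 4 or low library 6 (highest adjusted p = 0.0633). On high isoleucine the mean difference from control was 0.09 ± 0.09, adjusted p = 1.

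Insig1 fell with -0.41 ± 0.15, adjusted p = 0.0217. Insig1 in B6 females spanned 28.5 to 46.6 CPM (median 39.6) on control, 17.5 to 26.5 (median 22.7) on low and 27 to 45.8 (median 34.2) on high isoleucine. Insig1 in B6 males spanned 30.1 to 140 CPM (median 95.3) on control, 35.3 to 88.1 (median 43.9) on low and 25.9 to 65.9 (median 29.8) on high isoleucine. In B6 females the low isoleucine libraries all lay below the control libraries, and in B6 males the groups overlapped. The call in B6 females was lost in 10 of the 72 fits without 1 library, that without control library 4 among them (adjusted p = 0.0672). Insig1 in DBA females spanned 28.2 to 65 CPM (median 47.3) on control, 37.1 to 73.3 (median 48.6) on low and 43.5 to 145 (median 64.9) on high isoleucine. Insig1 in DBA males spanned 31.3 to 112 CPM (median 67.4) on control, 43.7 to 83.8 (median 50.4) on low and 44.8 to 100 (median 79.9) on high isoleucine. In neither DBA class did low differ from control past the threshold (log2 differences of 0.13 ± 0.29 in females and -0.26 ± 0.29 in males). Srebf2 and Scap, the transcription factor and its escort, gave -0.02 ± 0.07 and -0.08 ± 0.05, neither past the threshold.

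Srebf2 itself stayed in a narrow range of 18.1 to 50.7 CPM. Srebf2 in B6 females spanned 24.4 to 31 CPM (median 26.5) on control, 22.6 to 33.7 (median 27.3) on low and 23 to 30 (median 24.4) on high isoleucine. Srebf2 in B6 males spanned 24.5 to 46.8 CPM (median 35.7) on control, 27.5 to 40.2 (median 29.9) on low and 21.2 to 27.1 (median 23.6) on high isoleucine. Srebf2 in DBA females spanned 24 to 37.2 CPM (median 31.1) on control, 28.3 to 39.9 (median 35.6) on low and 22.4 to 50.7 (median 32.3) on high isoleucine. The groups overlapped throughout, except that every B6 male library on high isoleucine lay below every one on low (as for 4.1% of all genes). Srebf2 in DBA males spanned 19.8 to 29.9 CPM (median 28) on control, 18.1 to 29.6 (median 27.2) on low and 24.6 to 41 (median 30.3) on high isoleucine. Scap, whose group medians ran over 73.1 to 104 CPM, was as narrow.

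At the head of the pathway, Aacs, which activates acetoacetate for lipid synthesis, changed most on the log2 scale, -1.04 ± 0.22, adjusted p = 0.000116. Aacs in B6 females spanned 3.17 to 17.4 CPM (median 12.1) on control, 3.62 to 8.65 (median 4.77) on low and 7.37 to 12.1 (median 10.6) on high isoleucine. Aacs in B6 males spanned 4 to 21.6 CPM (median 10.4) on control, 1.9 to 6.2 (median 4.76) on low and 4.21 to 48.1 (median 24.2) on high isoleucine. Low isoleucine libraries were the low ones and high isoleucine libraries of B6 males ran highest, with wide overlap. Aacs in DBA females spanned 2.75 to 8.82 CPM (median 5.72) on control, 2.56 to 5.84 (median 3.55) on low and 4.3 to 11.3 (median 5.82) on high isoleucine. Aacs in DBA males spanned 8.19 to 23.8 CPM (median 12.9) on control, 2.72 to 10.7 (median 4.43) on low and 6.39 to 34 (median 24.7) on high isoleucine. By class the fall was called in B6 males (-1.39 ± 0.44) and DBA males (-1.38 ± 0.44); in females the log2 differences were -0.88 ± 0.43 in B6 and -0.53 ± 0.45 in DBA. The call in B6 males was lost in 48 of the 72 fits that each left out 1 library (highest adjusted p = 0.194), and that in DBA males without its control library 4, low library 3 or low library 6.

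Acat2, the cytosolic thiolase that joins acetyl-CoA units, fell with -0.36 ± 0.07, adjusted p = 1.73e-05. Acat2 in B6 females spanned 22.7 to 29.5 CPM (median 25) on control, 15.8 to 21.6 (median 19.8) on low and 22.7 to 31.3 (median 27.8) on high isoleucine. Acat2 in B6 males spanned 24.7 to 46.9 CPM (median 33.8) on control, 22.6 to 28.5 (median 25.3) on low and 25.1 to 48.4 (median 37.3) on high isoleucine. All 6 low isoleucine libraries of B6 females lay below all 6 control libraries. Acat2 in DBA females spanned 27.1 to 34.9 CPM (median 30.5) on control, 23.5 to 34.9 (median 27.4) on low and 24.6 to 39.2 (median 30.8) on high isoleucine. Acat2 in DBA males spanned 30.4 to 47.4 CPM (median 39.4) on control, 25.8 to 36.1 (median 29.2) on low and 29.8 to 46.6 (median 35) on high isoleucine. The fall was called in every class but DBA females (-0.15 ± 0.13). Leaving out 1 library ended the call for 3 libraries in B6 females, 4 in B6 males and 6 in DBA males (highest adjusted p of 0.0638, 0.112 and 0.0853). Acat2 has a close copy, Acat3, whose B6 male control libraries spanned 203 to 366 CPM, so how counts were split between both copies is uncertain.

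Hmgcs1, the cytosolic HMG-CoA synthase, was not called for low isoleucine (-0.15 ± 0.13, adjusted p = 0.396). Hmgcs1 in B6 females spanned 64.6 to 141 CPM (median 96.8) on control, 59.7 to 119 (median 67.7) on low and 71.8 to 146 (median 94.7) on high isoleucine. Hmgcs1 in B6 males spanned 40.4 to 211 CPM (median 97.2) on control, 61.2 to 105 (median 68) on low and 42.8 to 67.5 (median 52.6) on high isoleucine. The diets overlapped in B6, apart from the low values of B6 males on high isoleucine against most of their controls. Hmgcs1 in DBA females spanned 23.3 to 40.1 CPM (median 26.6) on control, 31.1 to 39.3 (median 36) on low and 21.6 to 70.1 (median 33.9) on high isoleucine. Hmgcs1 in DBA males spanned 19.3 to 41.5 CPM (median 27) on control, 20.9 to 40.5 (median 25.1) on low and 19.1 to 83.1 (median 43.2) on high isoleucine. The DBA medians lay below the B6 medians on every diet, which the comparison of the strains takes up.

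Among the mevalonate steps, Mvk, mevalonate kinase, fell and Ggps1, which makes geranylgeranyl diphosphate for protein prenylation, rose. Mvk in B6 females spanned 2.47 to 4.58 CPM (median 3.09) on control, 1.2 to 3.42 (median 2.72) on low and 2.16 to 3.75 (median 2.52) on high isoleucine. Mvk in B6 males spanned 3.71 to 9.78 CPM (median 6.44) on control, 1.99 to 7.98 (median 2.87) on low and 2.75 to 6.65 (median 3.96) on high isoleucine. Low isoleucine libraries overlapped the controls in both. Mvk in DBA females spanned 3.9 to 5.09 CPM (median 4.32) on control, 2.88 to 5.96 (median 4.65) on low and 2.91 to 9.81 (median 5.63) on high isoleucine. Mvk in DBA males spanned 4.93 to 7.51 CPM (median 6.12) on control, 2.44 to 5.35 (median 4.38) on low and 4.3 to 9.44 (median 6.38) on high isoleucine. The mean log2 fold change was -0.42 ± 0.12, adjusted p = 0.00565, with the call by class in B6 males (-0.85 ± 0.25). That class call was lost without any 1 of 8 libraries (highest adjusted p = 0.113).

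Ggps1 varied little, from 6.11 to 11.6 CPM. Ggps1 in B6 females spanned 6.23 to 9.66 CPM (median 7.86) on control, 8.4 to 10.8 (median 10.2) on low and 7.51 to 9.06 (median 8.32) on high isoleucine. Ggps1 in B6 males spanned 8.92 to 10.3 CPM (median 9.56) on control, 9.17 to 11.6 (median 10.5) on low and 6.26 to 10.7 (median 8.75) on high isoleucine. Low isoleucine libraries of B6 females were mostly high and overlapped the controls. Ggps1 in DBA females spanned 6.11 to 8.13 CPM (median 7.01) on control, 6.72 to 10.4 (median 8.51) on low and 7.24 to 8.37 (median 7.42) on high isoleucine. Ggps1 in DBA males spanned 6.64 to 9.55 CPM (median 7.88) on control, 7.01 to 9.91 (median 8.15) on low and 6.49 to 9.92 (median 8.16) on high isoleucine. The mean log2 fold change was 0.20 ± 0.05, adjusted p = 0.00265, and by class the rise was called in B6 females (0.32 ± 0.11), a call lost without any 1 of 4 libraries (highest adjusted p = 0.0888). The other mevalonate genes were not called on the mean: Pmvk, phosphomevalonate kinase, at 0.16 ± 0.10, Mvd, which decarboxylates diphosphomevalonate, at -0.26 ± 0.20, Idi1, the isomerase of isopentenyl diphosphate, at -0.47 ± 0.29, and Fdps, farnesyl diphosphate synthase, at -0.25 ± 0.19. Their group medians ran over 11.7 to 22.7 CPM for Pmvk, 1.13 to 5.6 CPM for Mvd, 3.52 to 52.4 CPM for Idi1 and 7.84 to 51.9 CPM for Fdps.

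Fdft1, squalene synthase, the first enzyme committed to sterols, fell with -0.39 ± 0.07, adjusted p = 2.43e-05. Fdft1 in B6 females spanned 44.7 to 51.7 CPM (median 49.3) on control, 26.7 to 43 (median 34.2) on low and 36.9 to 58 (median 46.2) on high isoleucine. Fdft1 in B6 males spanned 44 to 125 CPM (median 76.8) on control, 43.3 to 60.7 (median 51.7) on low and 48 to 67.1 (median 57.5) on high isoleucine. All low isoleucine libraries of B6 females were below all controls. Fdft1 in DBA females spanned 62.9 to 78.1 CPM (median 69.7) on control, 52.5 to 78.7 (median 65.1) on low and 62.7 to 102 (median 66) on high isoleucine. Fdft1 in DBA males spanned 74.2 to 91.6 CPM (median 79.2) on control, 56.8 to 71.3 (median 65.4) on low and 54.7 to 96.7 (median 75.8) on high isoleucine. In DBA males the groups were also apart, yet the test gave -0.31 ± 0.15, adjusted p = 0.142. The gene overlaps Ctsb, a lysosomal protease gene at a median of 599 CPM, on the other strand. Mvd, Ggps1 and Cyp51 likewise overlap Gm20388, Arid4b and Akap9 on the other strand and Tm7sf2 overlaps Vps51 on its own; whether counting used strand is not stated, so these levels are uncertain.

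Sqle, squalene epoxidase, a rate-limiting enzyme of the late pathway, was not called for low isoleucine on the mean (-0.57 ± 0.39, adjusted p = 0.254). Sqle in B6 females spanned 0.368 to 6.82 CPM (median 0.598) on control, 0.287 to 0.971 (median 0.462) on low and 0.17 to 0.884 (median 0.485) on high isoleucine. Sqle in B6 males spanned 1.33 to 32.3 CPM (median 13.6) on control, 1.09 to 17 (median 2.1) on low and 0.32 to 1.17 (median 0.617) on high isoleucine. The highest B6 female library was control library 4, at 6.82 CPM against at most 1.42 in the other controls. Sqle in DBA females spanned 0.349 to 1.71 CPM (median 0.736) on control, 1.21 to 4.4 (median 2.02) on low and 0.632 to 12.4 (median 1.35) on high isoleucine. Sqle in DBA males spanned 0.442 to 10 CPM (median 2.69) on control, 0.388 to 4.6 (median 2.52) on low and 0.872 to 19.5 (median 8.25) on high isoleucine. In every class the groups on low isoleucine overlapped the controls. Lss, lanosterol synthase, gave -0.15 ± 0.10 with group medians of 11.5 to 25.9 CPM.

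From lanosterol onward, Sc5d, Nsdhl, a sterol dehydrogenase in demethylation, and Msmo1 fell, Hsd17b7, the sterol ketone reductase of demethylation, rose, and Cyp51, Tm7sf2, Ebp and Dhcr7 were not called. Sc5d in B6 females spanned 151 to 225 CPM (median 185) on control, 97.1 to 146 (median 115) on low and 160 to 233 (median 200) on high isoleucine. Sc5d in B6 males spanned 157 to 331 CPM (median 249) on control, 133 to 176 (median 162) on low and 160 to 208 (median 197) on high isoleucine. All low isoleucine libraries of B6 females lay below all controls. Sc5d in DBA females spanned 111 to 122 CPM (median 117) on control, 82.6 to 134 (median 95.2) on low and 91.6 to 167 (median 127) on high isoleucine. Sc5d in DBA males spanned 106 to 174 CPM (median 132) on control, 88.8 to 170 (median 106) on low and 92.5 to 171 (median 160) on high isoleucine. The mean log2 fold change was -0.42 ± 0.07, adjusted p = 4.31e-06, called by class in both sexes of B6 (lost in males without control library 2, adjusted p = 0.0557) and in neither sex of DBA (-0.22 in females and -0.22 in males); the difference between strains of 0.41 ± 0.15 was itself not past the threshold (adjusted p = 0.14).

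Hsd17b7 in B6 females spanned 17 to 43.4 CPM (median 19.9) on control, 30.4 to 49 (median 40.4) on low and 17.1 to 28 (median 24.4) on high isoleucine. Hsd17b7 in B6 males spanned 36 to 88.4 CPM (median 48.3) on control, 34.4 to 53.9 (median 46.6) on low and 10.3 to 33.5 (median 17.9) on high isoleucine. Low isoleucine libraries were high in B6 females, where 1 control library (number 4, at 43.4 CPM) reached them, and no different from control in B6 males by the test. Hsd17b7 in DBA females spanned 20.9 to 32.8 CPM (median 22.9) on control, 23.9 to 43.5 (median 38) on low and 21.8 to 40 (median 26.1) on high isoleucine. Hsd17b7 in DBA males spanned 18.7 to 29.5 CPM (median 20.2) on control, 19.8 to 39.8 (median 22.8) on low and 17.2 to 56.5 (median 30.5) on high isoleucine. The mean log2 fold change was 0.35 ± 0.11, adjusted p = 0.00954, and by class it was called in B6 females (0.78 ± 0.22).

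Msmo1, the methylsterol monooxygenase, gave -0.54 ± 0.22, adjusted p = 0.0435. Msmo1 in B6 females spanned 6.92 to 30.4 CPM (median 7.51) on control, 7.41 to 10.2 (median 8.51) on low and 6.9 to 10.4 (median 7.73) on high isoleucine. Msmo1 in B6 males spanned 14.8 to 117 CPM (median 47.8) on control, 12 to 60 (median 17) on low and 11.7 to 23.7 (median 16.1) on high isoleucine. A single library stood high in B6 female controls (number 4) and in B6 males on low isoleucine (number 6). Msmo1 in DBA females spanned 6.2 to 15.4 CPM (median 8.9) on control, 8.98 to 21.3 (median 15.4) on low and 8.84 to 69.9 (median 14.2) on high isoleucine. Msmo1 in DBA males spanned 15.2 to 58.6 CPM (median 34.9) on control, 7.71 to 23.9 (median 14.3) on low and 15.1 to 69.1 (median 50) on high isoleucine. Its call on the mean was lost in 24 of the 72 fits that each left out 1 library (highest adjusted p = 0.128, without B6 female control library 4), whereas none of the other 11 calls on the mean was lost in any of them. Nsdhl fell with -0.49 ± 0.16, adjusted p = 0.0117 and had group medians of 4.06 to 18.1 CPM.

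Cyp51, lanosterol demethylase, gave -0.23 ± 0.20, adjusted p = 0.392. Cyp51 in B6 females spanned 6.01 to 28.3 CPM (median 8.03) on control, 5.36 to 11.3 (median 7.54) on low and 6.02 to 8.47 (median 7.4) on high isoleucine. Cyp51 in B6 males spanned 16.5 to 108 CPM (median 57.4) on control, 11.7 to 39.9 (median 19) on low and 8.12 to 24 (median 11.3) on high isoleucine. B6 males on the control diet had the highest median of the 12 groups. Cyp51 in DBA females spanned 4.84 to 9.19 CPM (median 7.3) on control, 8.21 to 18.7 (median 11.1) on low and 4.71 to 32.7 (median 9.24) on high isoleucine. Cyp51 in DBA males spanned 7.46 to 16.7 CPM (median 11.6) on control, 4.49 to 26.1 (median 14.5) on low and 9.47 to 51.3 (median 26.7) on high isoleucine. It fell on low isoleucine in B6 males (-1.40 ± 0.39, adjusted p = 0.0252), against a log2 difference of 0.75 ± 0.41 in DBA females. The call was lost without any 1 of control libraries 2 and 4 and low libraries 1, 2 and 5 (highest adjusted p = 0.108).

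Tm7sf2, a sterol reductase, gave -0.22 ± 0.11, adjusted p = 0.103. Tm7sf2 in B6 females spanned 15.7 to 33.7 CPM (median 26.9) on control, 13.6 to 26.1 (median 16.5) on low and 17 to 31.2 (median 21) on high isoleucine. Tm7sf2 in B6 males spanned 31.2 to 76.5 CPM (median 62.2) on control, 34.4 to 67.5 (median 43.1) on low and 24.9 to 43.1 (median 39.4) on high isoleucine. Diets overlapped in both. Tm7sf2 in DBA females spanned 28.7 to 50 CPM (median 37.6) on control, 31.6 to 53.1 (median 38.9) on low and 26.2 to 66.1 (median 33.9) on high isoleucine. Tm7sf2 in DBA males spanned 47.1 to 96.5 CPM (median 65.2) on control, 36.7 to 89.9 (median 49.5) on low and 48.7 to 96.7 (median 62.2) on high isoleucine. Medians of males lay above those of females on each diet in both strains. Ebp gave -0.08 ± 0.05 and Dhcr7, which closes the pathway, -0.16 ± 0.11; in DBA males both fell (Ebp -0.31 ± 0.10, Dhcr7 -0.70 ± 0.23), and all low isoleucine libraries there lay below all controls. Both calls were lost without DBA male control library 1 or 3, that of Dhcr7 also without low library 3 and that of Ebp also without low library 6.

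Of the other targets, Stard4, a carrier of cholesterol between membranes, fell with -0.67 ± 0.13, adjusted p = 3.3e-05. Stard4 in B6 females spanned 11.2 to 20.7 CPM (median 15.3) on control, 7.21 to 13.1 (median 8.8) on low and 14.5 to 19.9 (median 15.7) on high isoleucine. Stard4 in B6 males spanned 17.6 to 89.2 CPM (median 50.1) on control, 11.8 to 38.8 (median 20.3) on low and 13.9 to 29.6 (median 23.5) on high isoleucine. Low isoleucine libraries overlapped the controls in both, and in B6 females every high isoleucine library lay above every low one (as for 4.29% of all genes). Stard4 in DBA females spanned 20.5 to 37.1 CPM (median 28.9) on control, 19 to 33.7 (median 22.2) on low and 23 to 50.8 (median 38.9) on high isoleucine. Stard4 in DBA males spanned 34.8 to 62.8 CPM (median 48) on control, 24.2 to 53.7 (median 35.4) on low and 32.6 to 98 (median 79.7) on high isoleucine. The fall was called in B6 females (-0.79 ± 0.26) and B6 males (-1.23 ± 0.26). The call in females was lost without control library 3 or 4 (adjusted p = 0.0519 without library 4) or low library 2 or 3, and that in males in none of the 72 fits without 1 library. Tmem97, a sterol-regulated membrane protein also known as the sigma-2 receptor, gave -0.03 ± 0.07 and was called in DBA females (higher, 0.44 ± 0.13, adjusted p = 0.0237), a call lost without control library 3 or 4 or low library 2 or 4; Rdh11, a retinol dehydrogenase, gave -0.12 ± 0.08.

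By class, low isoleucine called 3 members higher and 5 lower in B6 females, against 20.8% of all genes called and 9.53% called higher. In B6 males it called 8 lower and none higher (5% of all genes called, 1.74% higher). In DBA females 2 were higher and none lower (11.8% called, 5.11% higher), and in DBA males 1 was higher and 4 lower (17.7% called, 7.48% higher). The share of members called was 29.6% in B6 females and 29.6% in B6 males. The count in males rested on single libraries, with 15 without low isoleucine library 6 and 2 without control library 2, and it was 1 in a fit of B6 males alone. With libraries of 1 title number allowed to be correlated it was 1 in B6 males and 4 in B6 females. Groups that did not overlap were found for 4 members that were lower in B6 females (2.84% of all genes), 1 higher in DBA females (2.41%), and 1 higher and 3 lower in DBA males (2.8% and 4.53%).

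The effect of low isoleucine was tested for differences between sexes and strains. Male minus female, 4 members passed, all with a lower value in males (background 6.68% called, 3.03% higher): Msmo1 at -1.36 ± 0.43, adjusted p = 0.0444, Dhcr7 at -0.98 ± 0.22, adjusted p = 0.00428, Hsd17b7 at -0.67 ± 0.22, adjusted p = 0.0494, and Tmem97 at -0.44 ± 0.13, adjusted p = 0.0331. DBA minus B6, Cyp51 alone of the 27 passed (1.47 ± 0.40, adjusted p = 0.0425, background 1.39% called, 0.716% higher). Of these 5 calls, that of Dhcr7 was lost in none of the 72 fits without 1 library, that of Tmem97 in 8, of Cyp51 in 25 (that without B6 female control library 4 among them), of Msmo1 in 28 and of Hsd17b7 in 53.

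Beyond the members, 6 lists of neighbouring genes were read in the same comparison, in which 37.8% of all genes were called; the lists of SREBP cleavage and of LXR targets had smaller shares called than that. Of 14 genes of fatty acid synthesis and SREBP1, 8 fell and 2 rose, with Srebf1, the gene of SREBP1, at -0.57 ± 0.14, Pklr, liver pyruvate kinase, at -0.66 ± 0.11, Elovl6, a fatty acid elongase, at -0.38 ± 0.08 and Acacb, a mitochondrial acetyl-CoA carboxylase, at 0.48 ± 0.10. Of 10 genes of SREBP cleavage and sterol-regulated degradation, 2 fell, both erlins, which mark sterol-regulated proteins for degradation (Erlin1 -0.50 ± 0.08, Erlin2 -0.32 ± 0.05). Of 11 genes of bile acid synthesis, 4 rose and 2 fell; Cyp39a1, an oxysterol hydroxylase, rose by 1.69 ± 0.17 and Cyp27a1, the sterol 27-hydroxylase, by 0.42 ± 0.06, Amacr, a racemase of the side chain, gave -0.31 ± 0.05, and Cyp7a1, the rate-limiting enzyme, was at -0.02 ± 0.20, adjusted p = 0.958.

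Of 13 LXR targets and genes of esterification and export, 3 rose and 1 fell: Mylip, a ubiquitin ligase of lipoprotein receptors (0.63 ± 0.10), Nceh1, a cholesterol ester hydrolase (0.31 ± 0.08), and Abca1, the exporter of cholesterol to HDL (0.22 ± 0.07), rose, and Nr1h3, the gene of LXR alpha, fell (-0.19 ± 0.06). Of 7 electron donors and accessory sterol genes, 2 rose and 4 fell, led by Cyb5r3, cytochrome b5 reductase (-0.53 ± 0.08), Mmab (-0.40 ± 0.08) and Lbr, a sterol reductase (0.38 ± 0.09). Of 11 genes of the isoprenoid branches, 3 rose and 4 fell, led by Pdss2 (-0.44 ± 0.06) and Dhdds (-0.26 ± 0.04), which make the side chain of ubiquinone and dolichol, and Rabggta, a prenyl transferase subunit (-0.29 ± 0.06).

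Marker lists were read against the same 37.8%. Of these, 9 of 11 Kupffer cell markers and 7 of 10 markers of infiltrating macrophages were lower, and 6 of 9 of sinusoidal endothelium and 3 of 9 of hepatocytes higher; 1 of 5 erythroid, 3 of 9 stellate and 1 of 9 lymphocyte markers were lower, and of 6 cholangiocyte markers 1 was higher and 1 lower. These calls were made on the mean of the classes. In DBA males summed infiltrating macrophage markers lay at 45 to 61.6 CPM (median 49.9) on low and 31.6 to 49.2 (median 38.3) on control. Summed Kupffer cell markers there had medians of 238 CPM on low and 232 on control. In the other classes the medians of both sums were lower on low isoleucine. The part of the markers in the members' values was not tested. In bulk liver, fewer cells of a type and less RNA per cell cannot be told apart. Dbp and Arntl, genes of the circadian clock and its output picked after their values were seen, also differed: Dbp in B6 males lay at 13.9 to 81.9 CPM on control and 3.62 to 14.7 on low isoleucine, and Arntl at 3.04 to 20.9 and 16 to 24.4. The labels give no time of day, and its part was not tested.

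High isoleucine against control called no member on the mean of the classes and no gene at all (0% of 14954 by edgeR). At an unadjusted p under 0.05 there were 1 member and 684 genes; DESeq2 called 0 members and 5 genes, and limma-voom 0 of both. The classes had medians of different sign: the median log2 fold change of the 27 members was -0.10 and -0.68 in B6 females and males and 0.28 and 0.24 in DBA females and males, and over all genes it stayed between -0.01 and 0.03. No member was called in B6 females (0% of all genes called), DBA females (0.00669%) or DBA males (0.0134%).

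In B6 males on high isoleucine, 15 of the 27 members fell and none rose. That is 55.6% of the members, against 4.51% of all genes called in either direction and 2.61% called lower. The falls covered every stretch of the pathway: 1 of 3 genes of HMG-CoA supply, 3 of 6 mevalonate genes, all 3 from squalene to lanosterol, 4 of 8 from lanosterol to cholesterol, 2 of 4 control genes and 2 of 3 other targets. The largest log2 fold changes were those of Sqle (-4.14 ± 0.81, adjusted p = 0.00166), Idi1 (-3.07 ± 0.62, adjusted p = 0.00245), Cyp51 (-1.95 ± 0.40, adjusted p = 0.00306) and Fdps (-1.82 ± 0.39, adjusted p = 0.00419).

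The libraries of B6 males show how this difference was made up. Sqle stood at 12.9, 32.3, 1.39, 16.7, 1.33 and 14.4 CPM in control libraries 1 to 6 and at 1.17, 0.667, 0.566, 0.381, 1.16 and 0.32 CPM in the high isoleucine libraries. Every control library was above every high isoleucine library, but controls 3 and 5 were close to them and the other 4 far above. Idi1 had the same 2 low controls, at 8.66 and 5.21 CPM, against 49 to 120 in the other 4 and 3.7 to 9.47 on high isoleucine. Fdps was at 11.2 and 14.9 CPM in controls 3 and 5, 50.4 to 87.7 in the others and 9.12 to 20.6 on high isoleucine. Controls 3 and 5 carry different title numbers in the labels, and each shares its number with a high control library.

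**Figure D3:**
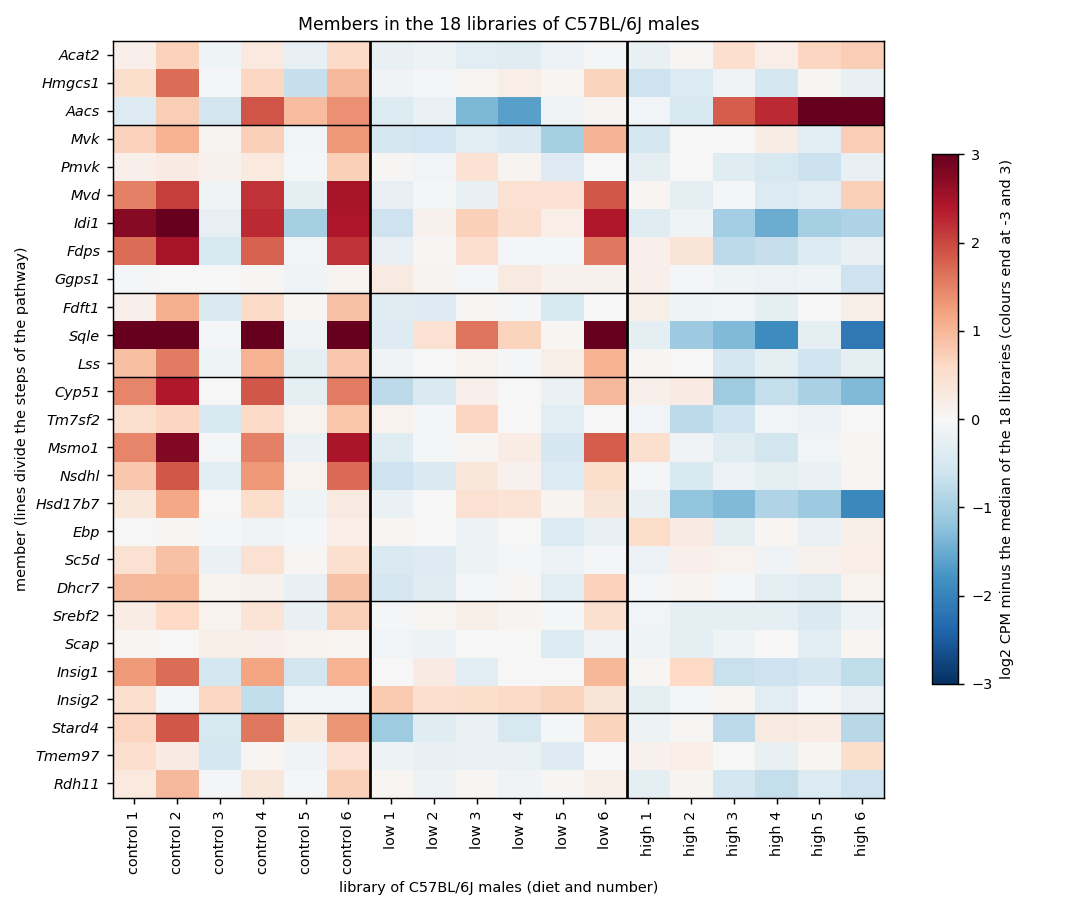
Log2 CPM of the 27 members (rows) in the 18 libraries of B6 males (columns, by diet and number), each row centred on its median over these libraries. Control libraries 1, 2, 4 and 6 are high for Sqle, Idi1, Fdps, Cyp51 and Msmo1, control libraries 3 and 5 are not, and low isoleucine library 6 is the high one of its group.

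Step by step in B6 males, Hmgcs1 fell (-0.99 ± 0.27, adjusted p = 0.023), with 42.8 to 67.5 CPM (median 52.6) on high isoleucine against 40.4 to 211 CPM (median 97.2) on control. Mvd fell (-1.69 ± 0.41, adjusted p = 0.0114), while Mvk (-0.64 ± 0.25, adjusted p = 0.111), Pmvk (-0.58 ± 0.20, adjusted p = 0.0709) and Ggps1 (-0.14 ± 0.11, adjusted p = 0.473) were not called. Lss fell (-1.05 ± 0.20, adjusted p = 0.000923), a call lost in none of the 72 fits without 1 library. Fdft1 fell (-0.49 ± 0.15, adjusted p = 0.0413), a call lost without any 1 of 8 libraries of the class (highest adjusted p = 0.237). Hsd17b7 fell (-1.45 ± 0.23, adjusted p = 5.17e-05), the lowest adjusted p of the members, and its groups did not overlap; Sqle and Hsd17b7 were the 2 members of which that held (0.809% of all genes).

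Further along, Msmo1 fell (-1.78 ± 0.44, adjusted p = 0.0127) and Nsdhl fell (-1.30 ± 0.32, adjusted p = 0.0119). Tm7sf2 (-0.68 ± 0.22, adjusted p = 0.0575), Dhcr7 (-0.64 ± 0.22, adjusted p = 0.0798), Sc5d (-0.33 ± 0.15, adjusted p = 0.169) and Ebp (0.11 ± 0.10, adjusted p = 0.553) were not called. Srebf2 fell (-0.59 ± 0.14, adjusted p = 0.00903) and Insig1 fell (-1.16 ± 0.29, adjusted p = 0.0154), whereas Scap (-0.21 ± 0.10) and Insig2 (-0.22 ± 0.18) were not called. Stard4 fell (-1.22 ± 0.26, adjusted p = 0.00367) and Rdh11 fell (-0.80 ± 0.17, adjusted p = 0.00263), and Tmem97 was at -0.01 ± 0.13. The calls of Msmo1 and Nsdhl were lost without control library 2, and those of Hmgcs1 and Insig1 without control library 2 or high library 6. Aacs stood out in the other direction, at 1.20 ± 0.42, adjusted p = 0.0806.

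**Figure D4:**
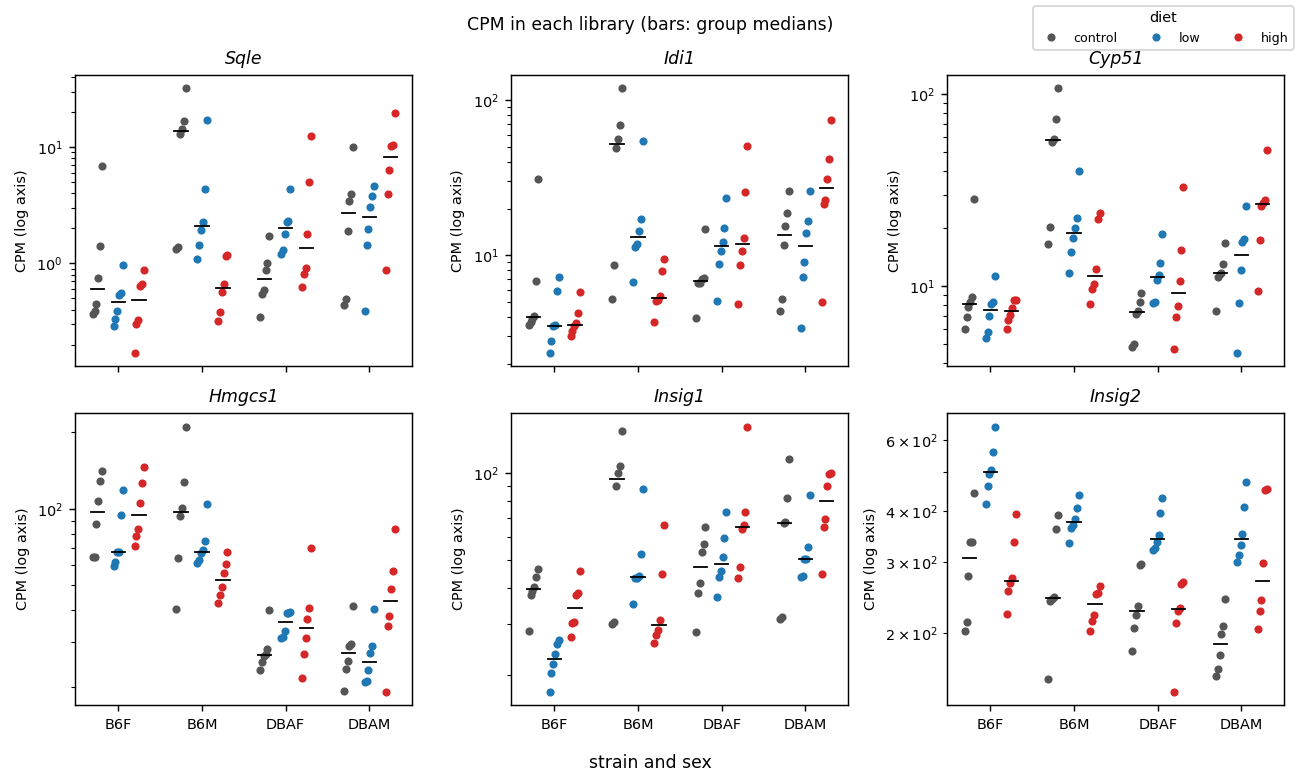
CPM on a log axis in each library (points) with group medians (bars) for 6 members across 4 classes and 3 diets. B6 male controls are split for Sqle, Idi1 and Cyp51, Hmgcs1 is lower in both DBA classes, and Insig2 is higher on low isoleucine in every class, which the test called in 3 of 4.

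Genes around the pathway moved as well in B6 males on high isoleucine. Of the 13 LXR targets and genes of esterification and export, the sterol exporters Abcg5 (1.0 ± 0.17, adjusted p = 0.000219), Abcg8 (0.93 ± 0.16, adjusted p = 0.000143) and Abcg1 (0.88 ± 0.19, adjusted p = 0.00333) rose, Nceh1 fell (-0.50 ± 0.15, adjusted p = 0.0412), and Abca1 was at 0.06 ± 0.14, adjusted p = 0.834. Srebf1 rose (1.17 ± 0.29, adjusted p = 0.0135) while Srebf2 fell, and Acacb fell (-0.80 ± 0.20, adjusted p = 0.0129). Cyp39a1, which rose on low isoleucine, fell here (-1.42 ± 0.33, adjusted p = 0.00884); Cyp7a1 was at -0.79 ± 0.41, adjusted p = 0.247. Cyb5a, cytochrome b5 (0.53), and Coq2, of ubiquinone synthesis (0.36), also rose; genes outside the rule for names were picked after their values were seen.

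Over all genes tested, high isoleucine library 1 of B6 males had a median correlation of 0.9692 with its group, against 0.9785 to 0.9870 for the others. The count of 15 ranged from 10 (without control library 2) to 17 (without control library 5) when libraries were left out 1 at a time. It was 8 of 195 genes called when the fit held only the 18 libraries of B6 males, and 4 of 136 (Cyp51, Hsd17b7, Lss and Rdh11) when libraries of 1 title number were allowed to be correlated, with Sqle at adjusted p = 0.106 and Idi1 at 0.0854. Summed Kupffer cell markers lay at 249 to 455 CPM on control and 169 to 815 on high isoleucine in B6 males, with 0 of 11 called and 1 of 10 infiltrating macrophage markers called higher; their part was not tested. Dbp lay at 43.9 to 102 CPM and Arntl at 2.06 to 7.42 CPM in these high isoleucine libraries, against 13.9 to 81.9 and 3.04 to 20.9 on control, and the part of time of day was not tested.

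The response to high isoleucine was also compared between the strains. By class it called members only in B6 males, whose split control libraries enter this difference. DBA minus B6, averaged over the sexes, 12 of the 27 members passed, all with a higher value in DBA; that is 44.4% against 0.461% of all genes. They were Sqle (4.65 ± 0.79, adjusted p = 0.00215), Idi1 (3.40 ± 0.59, adjusted p = 0.00215), Cyp51 (2.29 ± 0.40, adjusted p = 0.00215), Fdps (2.08 ± 0.39), Msmo1 (2.08 ± 0.43), Mvd (1.99 ± 0.41), Nsdhl (1.29 ± 0.32), Hsd17b7 (1.15 ± 0.22), Stard4 (1.11 ± 0.26), Hmgcs1 (1.05 ± 0.27), Lss (0.86 ± 0.20) and Rdh11 (0.70 ± 0.16). Over the 72 fits without 1 library, the call of Hmgcs1 was lost in 49, of Nsdhl in 19, of Rdh11 in 3, of Lss and Stard4 in 2 each (B6 male control library 2 and DBA male high library 2), and of the other 7 in none. Those of Hmgcs1 and Nsdhl were among those lost without B6 female control library 4. For Sqle the class values were -1.77 and -4.14 in B6 females and males (-0.41 ± 0.91 in females without control library 4) and 2.07 and 1.32 in DBA females and males. Male minus female, no member and no gene passed by edgeR, with 10 members and 1003 genes at an unadjusted p under 0.05. With libraries of 1 title number allowed to be correlated, no member and no gene passed for the difference between strains, and limma-voom without that term gave 3 members.

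High was also set against low isoleucine, a comparison that shares its libraries with those above. On the mean of the classes 7 members were higher and 4 lower on high isoleucine (background 43.6%): Aacs (1.55 ± 0.22), Stard4 (0.63 ± 0.13), Sc5d (0.43 ± 0.07), Acat2 (0.40 ± 0.07), Nsdhl (0.39 ± 0.16), Mvk (0.32 ± 0.12) and Fdft1 (0.25 ± 0.07) were higher, and Insig2 (-0.61 ± 0.09), Hsd17b7 (-0.51 ± 0.11), Pmvk (-0.26 ± 0.10) and Ggps1 (-0.18 ± 0.05) lower. In B6 males Aacs was at 2.58 ± 0.45 and Sqle at -2.64 ± 0.80, 2 members that went opposite ways. In DBA males 6 members were higher and none lower (background 14.3% called, 8.02% higher), among them Msmo1 (1.65) and Hmgcs1 (0.79).

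Strains were compared on the control diet, with 12 libraries each. Counts of both strains were made on GRCm38.p5, per the labels, and the part of strain differences in sequence was not tested. DBA against B6, 8 members were lower and 3 higher, 40.7% against 45.4% of all genes. Hmgcs1 was lower (-1.87 ± 0.19, adjusted p = 1.57e-12), with -1.81 in females and -1.93 in males. Its control libraries were 64.6 to 141 CPM (median 96.8) in B6 females and 23.3 to 40.1 CPM (median 26.6) in DBA females. These female groups did not overlap, which held for 2 members lower in DBA females and for 7.92% of all genes. In males the Hmgcs1 groups overlapped, at 40.4 to 211 CPM in B6 and 19.3 to 41.5 CPM in DBA. Also lower were Sc5d (-0.74 ± 0.10, adjusted p = 1.44e-08), Cyp51 (-1.44 ± 0.29, adjusted p = 3.06e-05), Sqle (-1.49 ± 0.53, adjusted p = 0.0183), Idi1 (-1.06 ± 0.41, adjusted p = 0.0297), Hsd17b7 (-0.63 ± 0.16, adjusted p = 0.000725), Insig2 (-0.42 ± 0.13, adjusted p = 0.00396) and Ggps1 (-0.21 ± 0.08, adjusted p = 0.0201). Higher in DBA were Tm7sf2 (0.38 ± 0.16, adjusted p = 0.0393), Fdft1 (0.25 ± 0.10, adjusted p = 0.0428) and Scap (0.18 ± 0.07, adjusted p = 0.033).

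Counts were also taken by sex. In males 11 were lower and 1 higher in DBA (background 40.5%), in females 2 lower and 5 higher (32.3%), and the difference between the sexes was not tested. The same split B6 male controls enter here. Without B6 control female library 4 the count of 11 became 8, with Sqle, Idi1, Fdft1 and Ggps1 among those lost; Sqle was also lost without B6 male control library 2, and Hmgcs1, Sc5d, Cyp51, Hsd17b7 and Insig2 were called in each of the 72 fits that left out 1 library. Those 5 were also the ones called with libraries of 1 title number allowed to be correlated. Of infiltrating macrophage markers 8 of 10 and of Kupffer cell markers 9 of 11 were lower in DBA, against 45.4% of all genes called, and their part was not tested.

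Males were compared with females on the control diet, again with 12 libraries each. On this diet most members were higher in males: 19 of 27 (70.4%) passed, all higher, against 26.2% of all genes called and 13.3% called higher. The split B6 male controls enter here as well, and the sexes were not compared on the low or high isoleucine diet alone. The median log2 fold change was 0.56 over the members and 0.00109 over all genes tested. Sqle was higher by 2.48 ± 0.54, adjusted p = 0.00034, Msmo1 by 2.05 ± 0.31, adjusted p = 6.25e-07, Idi1 by 1.68 ± 0.42, adjusted p = 0.00161, Fdps by 1.63 ± 0.28, adjusted p = 4.95e-06, Cyp51 by 1.55 ± 0.29, adjusted p = 2.9e-05, Stard4 by 1.20 ± 0.18, adjusted p = 5.07e-07 and Tm7sf2 by 1.01 ± 0.16, adjusted p = 7.1e-07.

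**Figure D5:**
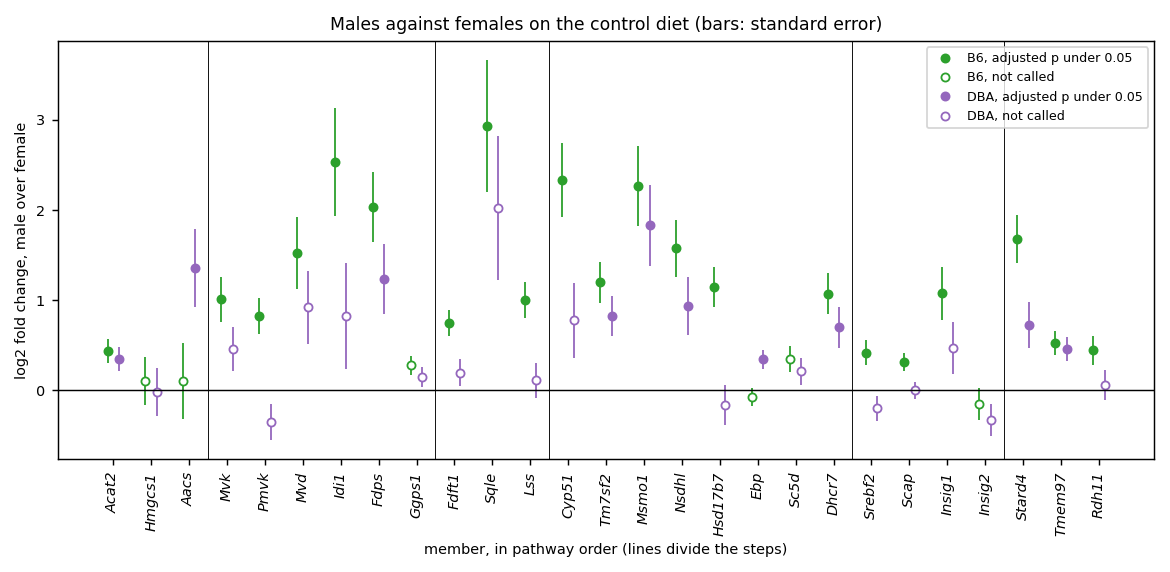
Log2 fold change of males over females on the control diet for the 27 members in B6 (green) and DBA (purple), with SE bars; filled points have an adjusted p under 0.05. All filled points lie above 0, 21 in B6 and 10 in DBA.

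The other members that were higher in males were Nsdhl (1.26), Mvd (1.22), Dhcr7 (0.89), Insig1 (0.78), Mvk (0.74), Lss (0.56), Hsd17b7 (0.49), Tmem97 (0.49), Fdft1 (0.47), Acat2 (0.40), Sc5d (0.28) and Ggps1 (0.21). Those not called were Hmgcs1 (0.05 ± 0.19), Aacs (0.73 ± 0.30), Pmvk (0.24 ± 0.14), Ebp (0.13 ± 0.07), Srebf2 (0.11 ± 0.10), Scap (0.16 ± 0.07), Insig2 (-0.23 ± 0.13) and Rdh11 (0.25 ± 0.12). Hmgcs1, the member with the clearest strain difference, was thus near 0 for sex, in B6 (0.11 ± 0.26) and in DBA (-0.02 ± 0.27).

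Within B6, 21 members were higher in males and none lower (background 17.4%), and within DBA 10 and none (25.7%); the share of members called was 77.8% in B6 and 37.0% in DBA. Called in both strains were Acat2, Fdps, Msmo1, Nsdhl, Dhcr7, Stard4, Tm7sf2 and Tmem97, and Aacs (1.36 ± 0.44) and Ebp (0.34 ± 0.10) in DBA without a call in B6. Libraries that did not overlap were found for Pmvk and Scap in B6 (2.39% of all genes were higher in males without overlap) and for Ebp in DBA (6.8%). Over fits that each left out 1 library, the count on the mean of the strains ran from 17 to 20, and it was 16 with libraries of 1 title number allowed to be correlated. The call of Sc5d was lost in 10 of these 72 fits, that of Ggps1 in 5 and that of Hsd17b7 without B6 male control library 2. No other call on the mean of the strains was lost.

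Other genes differed with sex beside the members. All 11 Kupffer cell markers, 7 of 9 of sinusoidal endothelium, 6 of 9 lymphocyte and 5 of 9 stellate markers were lower in males, against 26.2% of all genes called, and their part was not tested. Summed Kupffer cell markers on control lay at 375 to 1036 CPM in B6 females and 249 to 455 in B6 males, and at 226 to 430 in DBA females and 153 to 328 in DBA males. Cyp7a1 was higher in males (1.19 ± 0.29, adjusted p = 0.00137), and Srebf1 (-0.40 ± 0.20, adjusted p = 0.145) and Abca1 (0.17 ± 0.10, adjusted p = 0.212) were not called.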

How the data were processed

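The authors deposited expected counts for Ensembl genes on GRCm38.p5, per the labels; these estimated counts are not normalized, and 9.56% of nonzero values were not whole. Which aligner and counter made them is not given in the sources used here. R 3.4.3, limma and edgeR are named in the submitters' processing notes. One label field describes stranded polyA-enriched libraries and another a total RNA guide. Tables of the authors' own comparisons were not used here, since their group codes are not explained in the labels. The last line of the count table is incomplete (values for 3 libraries) and was left out; 0 columns were unmatched, and 52 identifiers without a symbol held 0.017% of counts.

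Counts were rounded, filtered with filterByExpr by group and scaled by TMM (factors 0.841 to 1.14). edgeR 4.0.16 (R 4.3.3) fitted all 72 libraries with a mean per group (common biological coefficient of variation 0.21); the quasi-likelihood test was robust, with Benjamini-Hochberg adjustment over 14954 genes and a threshold of 0.05. The fit was also run on simulated counts, drawn independently for each library with a coefficient of variation of 0.21 for every gene. That run did not cover correlated libraries or genes of wider spread such as Sqle. Alternatives used DESeq2 1.42.0, limma 3.58.1 (voom), other filters and scaling, quality weights, 72 fits that each left out 1 library, and a replicate block. Exon lengths and positions came from a GRCm38 annotation. No 2 libraries of a group agreed within sampling noise (lowest chi-square per gene 13.4).

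The members, lists and rules were chosen with earlier results of these data known. All 27 members are named; values in every group are given for the 8 with the lowest adjusted p for low isoleucine, 4 for strain and 3 for sex, and for Srebf2, Hmgcs1, Sqle and Insig1. Up to 3 genes of each neighbouring list are named by adjusted p, with Srebf1, Cyp7a1 and Abca1. High isoleucine in B6 males and its difference between strains were added as results after the data were seen.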

Additional observations from a re-analysis of the deposited data

Results flagged for a closer look

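Among 16 members with values given in every group, 192 sets of 6 libraries were checked for a library far from the others, and 21 had one. The rule flags about 1 in 20 by chance only for independent sets of values with a normal spread. The members were measured in the same libraries, so the count of 21 is not read against chance. Most of the 21 were single high libraries that recurred across genes. In B6 female controls, library 4 stood apart for Sqle (6.82 CPM, next 1.42), Cyp51 (28.3, next 8.83), Msmo1 (30.4, next 10) and Hsd17b7 (43.4, next 25.9). In B6 males on low isoleucine, library 6 stood apart for Sqle (17 CPM, next 4.33), Msmo1 (60, next 19.9), Hmgcs1 (105, next 74.8), Insig1 (88.1, next 52.4) and Mvk (7.98, next 3.18), and library 3 for Tm7sf2 (67.5, next 46). In DBA females on high isoleucine, library 3 stood apart for Sqle (12.4 CPM, next 4.96), Msmo1 (69.9, next 28.8) and Insig1 (145, next 73.3).

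The others were spread over groups. In DBA female controls these were Hmgcs1 in library 3 (40.1 CPM, next 28.1) and Hsd17b7 in library 5 (32.8, next 25.1), and on low isoleucine Sqle in library 5 (4.4, next 2.32). In DBA male controls they were Sqle in library 1 (10 CPM, next 3.94), Hsd17b7 in library 5 (29.5, next 21.8) and, as a low value, Srebf2 in library 4 (19.8, next 26.5), and on low isoleucine Insig1 in library 1 (83.8, next 55.3). In B6 females on high isoleucine it was Mvk in library 4 (3.75 CPM, next 2.69).

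Diet effects that differed between strains or sexes by an interaction term in edgeR's fit are also listed. The low isoleucine effect differed DBA minus B6 for Cyp51 (1.47 on the log2 scale) and male minus female for Dhcr7 (-0.98), Hsd17b7 (-0.67), Msmo1 (-1.36) and Tmem97 (-0.44). The high isoleucine effect differed DBA minus B6 for Sqle (4.65), Idi1 (3.40), Cyp51 (2.29), Fdps (2.08), Msmo1 (2.08), Mvd (1.99), Nsdhl (1.29), Hsd17b7 (1.15), Stard4 (1.11), Hmgcs1 (1.05), Lss (0.86) and Rdh11 (0.70).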

How the results depend on the processing

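Counts of members called kept within 1.5 times under DESeq2, relative log expression factors, a minimum mean of 1 CPM and the title letter as covariate (chosen after seeing the data), and 108 single calls reversed under none of the 10 settings compared; DESeq2 and the other factors lost 0 of 108, voom 21, no filter on low counts 26 and quality weights 20. For low isoleucine the count became 4 in B6 males and 2 in DBA males without the filter, 1 in B6 males in a fit of that class alone, and 4 in DBA females with quality weights. For its difference between strains the count was 0 with voom, without the filter and with quality weights, and between sexes it was 1 without the filter. For high isoleucine in B6 males it was 7 with quality weights and 8 in a fit of that class alone, and its difference between strains gave 3 with voom. The cause of these changes was not tested.

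Leaving out 1 library at a time, the counts ran from 11 to 13 for low isoleucine on the mean, 5 to 8 for B6 females, 2 to 15 for B6 males (without control replicate 2 and without low replicate 6), 0 to 3 in DBA females (lowest without control replicate 4) and 2 to 6 in DBA males (lowest without control replicate 1, control replicate 3, low replicate 3 or low replicate 6). They ran from 0 to 0 for high isoleucine on the mean, 9 to 13 for high against low, 8 to 13 for strain, 17 to 20 for sex, 0 to 1 and 1 to 4 for the low isoleucine effect between strains and between sexes, 10 to 17 for high isoleucine in B6 males, and 7 to 14 for its difference between strains (lowest without B6 male control replicate 2 or DBA male high replicate 2).

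Title numbers in the labels join 2 libraries of 1 group and lie within a diet, so they could be used only as a random replicate block (limma-voom, correlation 0.244), not to pair diets. Deviations of libraries with the same number had a median correlation of 0.0346 across genes, against -0.27 for others of a group. These deviations are from the mean of the group, which makes independent libraries correlate negatively, so 0.0346 does not mean independence. The median chi-square per gene was 35 for pairs with the same number and 74.3 for other pairs. Libraries with the same number were thus closer to each other than others of a group. With this block 58 of 108 calls were lost; the counts were 9 for low isoleucine on the mean, 4 and 1 in B6 females and males, 0 and 1 in DBA females and males, 5 for strain, 16 for sex, 9 for high against low, 0 and 1 for the low isoleucine differences between strains and sexes, 4 for high isoleucine in B6 males and 0 for its difference between strains. On the mean of low isoleucine the 3 calls lost were Insig1 (adjusted p = 0.135), Msmo1 (0.229) and Nsdhl (0.0601). Depth limits Sqle most, at 0.17 CPM in its lowest library.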

Other observations

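Library titles end in N or R, a letter that the labels do not explain. Within groups, R against N called 0 of 14954 genes and 0 members, while 24 of the 27 members had a log2 difference above 0, the largest for Aacs (0.20 ± 0.18 SE). Some of these were close to 0, such as Ebp (0.0007), Scap (0.001) and Acat2 (0.002). The share of all genes above 0 was not taken. The members were measured in the same libraries, so the count of 24 is not read against chance.

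The library with most Sqle was the highest of its 6 for 22 of the 27 members in DBA females on high isoleucine, 18 in B6 female controls, 18 in B6 males on low isoleucine and 16 in B6 male controls, and for 5 in DBA males on low isoleucine and 7 in B6 males on high isoleucine. These counts include Sqle itself, by which the library was picked, and the share of all genes highest there was not taken. In B6 female controls that library, number 4, also had the lowest Dbp of its group (4.14 CPM, others 12.2 to 53) and the highest Arntl (19.9 CPM, others 4.19 to 10.5). In B6 male controls the libraries low in Sqle, numbers 3 and 5, had Dbp at 27.5 and 81.9 CPM, within the range of 13.9 to 66.3 of the other 4 for the first and above it for the second.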
